A study of Mus musculus with 12 samples.

Results

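The 9 keratin genes of the basal and suprabasal layers of the epidermis, Krt5, Krt14, Krt15, Krt1, Krt10, Krt2, Krt77, Krt78 and Krt80, were followed across injured and uninjured mouse skin. They were taken by name from the 53379 genes counted in each library, and 1 annotated gene matched each name. All 9 passed the filter on low counts, which left 23635 genes for testing. RNA of whole skin from 3-month-old mice (strain given as C57BL/6 & B6D2) was sequenced in 12 libraries, 3 in each of 4 groups. Nf1-KO injured and control injured skin was taken 14 days after injury, and Nf1-KO uninjured and control uninjured skin was intact. The Nf1-KO mice had the genotype Prss56Cre, R26tdTom, Nf1flox/-, and the controls Prss56Cre, R26tdTom, so every group carried the Cre and its tdTomato reporter. Nf1 encodes neurofibromin, which restrains RAS signalling. Cre was driven by Prss56, and the study's title puts the knockout in boundary cap cells, which form glia of nerve roots and skin. As written, the genotype also gives every cell of the Nf1-KO mice 1 null allele, keratinocytes included. The labels do not say that the samples of a group came from separate animals, so p-values measure the spread between these samples.

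Keratins are the intermediate filament proteins of epithelial cells. Each filament needs a type I and a type II keratin, and the pair changes as a keratinocyte leaves the basal layer. Basal cells make KRT5 (type II) with KRT14 or KRT15 (type I), and differentiating cells above them switch to KRT1 (type II) with KRT10 (type I). KRT2, KRT77, KRT78 and KRT80 are further type II keratins of cells that differentiate. KRT15 also marks the bulge of the hair follicle, where stem cells of the follicle lie, and KRT5 and KRT14 are made in the outer root sheath of the follicle as well as in the epidermis. In whole skin, fewer cells of a type and less RNA per cell cannot be told apart.

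The type I genes lie on chromosome 11 and the type II genes on chromosome 15, all 9 on the minus strand (GENCODE M21, GRCm38, the assembly called mm10). Promoter sequences are shown for 4 genes whose level was called lower in injured skin of both genotypes, since they can be read against the start of each gene. RefSeq (GRCm38.p6) promoters were found for 6 of the 9 genes, and 5 of these started within 10 bases of the GENCODE start. Each line gives the 250 bases before the start of transcription, 5′ to 3′ on the strand of the gene, and the capitals mark the TATA-like letters.
Krt10 (chr11:99389365-99389614, minus strand): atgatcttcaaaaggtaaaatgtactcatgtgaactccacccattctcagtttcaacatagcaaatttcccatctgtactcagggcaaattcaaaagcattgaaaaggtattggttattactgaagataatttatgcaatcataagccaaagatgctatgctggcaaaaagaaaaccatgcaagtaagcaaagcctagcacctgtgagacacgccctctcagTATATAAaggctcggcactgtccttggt
Krt77 (chr15:101869706-101869955, minus strand): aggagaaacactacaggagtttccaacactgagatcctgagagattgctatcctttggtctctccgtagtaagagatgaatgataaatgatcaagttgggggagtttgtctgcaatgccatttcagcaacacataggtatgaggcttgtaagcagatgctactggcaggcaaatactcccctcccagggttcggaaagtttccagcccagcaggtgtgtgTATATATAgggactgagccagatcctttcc
Krt78 (chr15:101954288-101954537, minus strand): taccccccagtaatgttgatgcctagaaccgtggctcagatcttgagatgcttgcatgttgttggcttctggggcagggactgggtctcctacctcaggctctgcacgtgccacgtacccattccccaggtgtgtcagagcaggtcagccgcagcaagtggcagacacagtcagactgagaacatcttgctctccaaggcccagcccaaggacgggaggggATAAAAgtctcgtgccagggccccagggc
Krt5 (chr15:101712906-101713155, minus strand): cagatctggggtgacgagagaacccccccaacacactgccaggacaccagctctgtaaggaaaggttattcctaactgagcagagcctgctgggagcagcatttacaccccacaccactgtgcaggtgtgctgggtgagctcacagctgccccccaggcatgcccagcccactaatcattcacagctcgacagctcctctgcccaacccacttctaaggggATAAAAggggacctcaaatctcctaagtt
TATA-like letters were searched as 3 motifs. TATAA is the first, in 22.8% of 32851 mouse promoter windows on either strand. TATATA is the second, in 5.25%. ATAAAA is the third, in 17%. On the strand of the gene the capitals start 28 bases before the start of transcription in Krt10, 30 in Krt77, 29 in Krt78 and 29 in Krt5. The promoter of Krt2, not printed, held such letters 29 bases before its start. Of all these windows, 4.74% had one of the 3 motifs on the gene strand between 20 and 40 bases before the start. The motifs overlap each other and were chosen after the sequences had been seen. The AP-1 motif TGANTCA, in 6.75% of windows on either strand, was not found in the 4 printed stretches. Nor was the AP-2 motif GCCNNNGGC, in 13.7% of windows. Such a match is a description of letters and says nothing of the factor.

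Libraries held 8817013 to 16809687 counts. Levels are CPM (library-size scaled counts) after TMM scaling, and a gene was called changed at an adjusted p under 0.05 in edgeR's quasi-likelihood test (Benjamini-Hochberg adjustment over the 23635 genes). Nf1, the targeted gene, stood at 8.14 to 14.1 raw CPM in Nf1-KO injured, 8.98 to 14.7 in control injured, 8.96 to 11.05 in Nf1-KO uninjured and 9.41 to 17.2 in control uninjured skin, which does not check the genotype in whole skin. Skin state was confounded with sex markers. Raw CPM of Xist, a transcript of females, ran from 436 to 627 in injured and from 0.709 to 2.95 in uninjured libraries, and that of the Y-linked Ddx3y stood at 0 to 0.0595 in injured and 68.2 to 93.3 in uninjured libraries. Sex and injury therefore cannot be told apart in any comparison of injured with uninjured skin. Library measures moved with skin state as well. Genes with a count numbered 25188 to 34592 in injured and 38490 to 43311 in uninjured libraries. Olfactory, vomeronasal and trace amine receptor genes, used as a measure of background, stood at 0.00228 to 0.0532 CPM per kb in injured and 0.0953 to 0.337 in uninjured libraries. Counts in genes like ribosomal RNA took up 1.75% to 4.21% of injured and 0.931% to 2.26% of uninjured libraries. Markers of other cells moved with skin state too. The 12 measured markers of the growing hair follicle summed to 9579 to 31118 CPM in injured and 23.5 to 98.0 in uninjured libraries, with none at 0 in any group. Fibroblast markers (7 genes) summed to 5987 to 18332 CPM in injured and 1005 to 3414 in uninjured skin, adipocyte markers (7 genes) to 1291 to 3357 and 62.6 to 368, and markers of skeletal muscle (6 genes) to 2140 to 8361 and 103 to 980.0. The part of these cells and of background in the results was not tested.

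All 9 keratins had counts in every library, and the uninjured libraries numbered 3 stood apart in both genotypes. The 8 other keratinocyte markers summed to 9621 to 16543 CPM in injured and 23040 to 34827 in uninjured libraries, with none at 0 throughout a group. The 9 genes together took 1.32% to 1.67% of all counts in Nf1-KO injured, 2.01% to 2.495% in control injured, 3.96% to 4.61% in Nf1-KO uninjured and 3.55% to 4.12% in control uninjured skin. Uninjured library 3 of each genotype had the highest Krt5, Krt14, Krt1, Krt10 and Krt2 of its group. It also had the wound keratins, which are low in resting epidermis. Krt16 stood at 380 CPM in Nf1-KO uninjured library 3, against 6.90 and 3.601 in libraries 1 and 2, and at 291 CPM in control uninjured library 3, against 3.48 and 3.68. Where an injury result depends on these libraries, its value without them is given beside it.

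**Figure D1:**
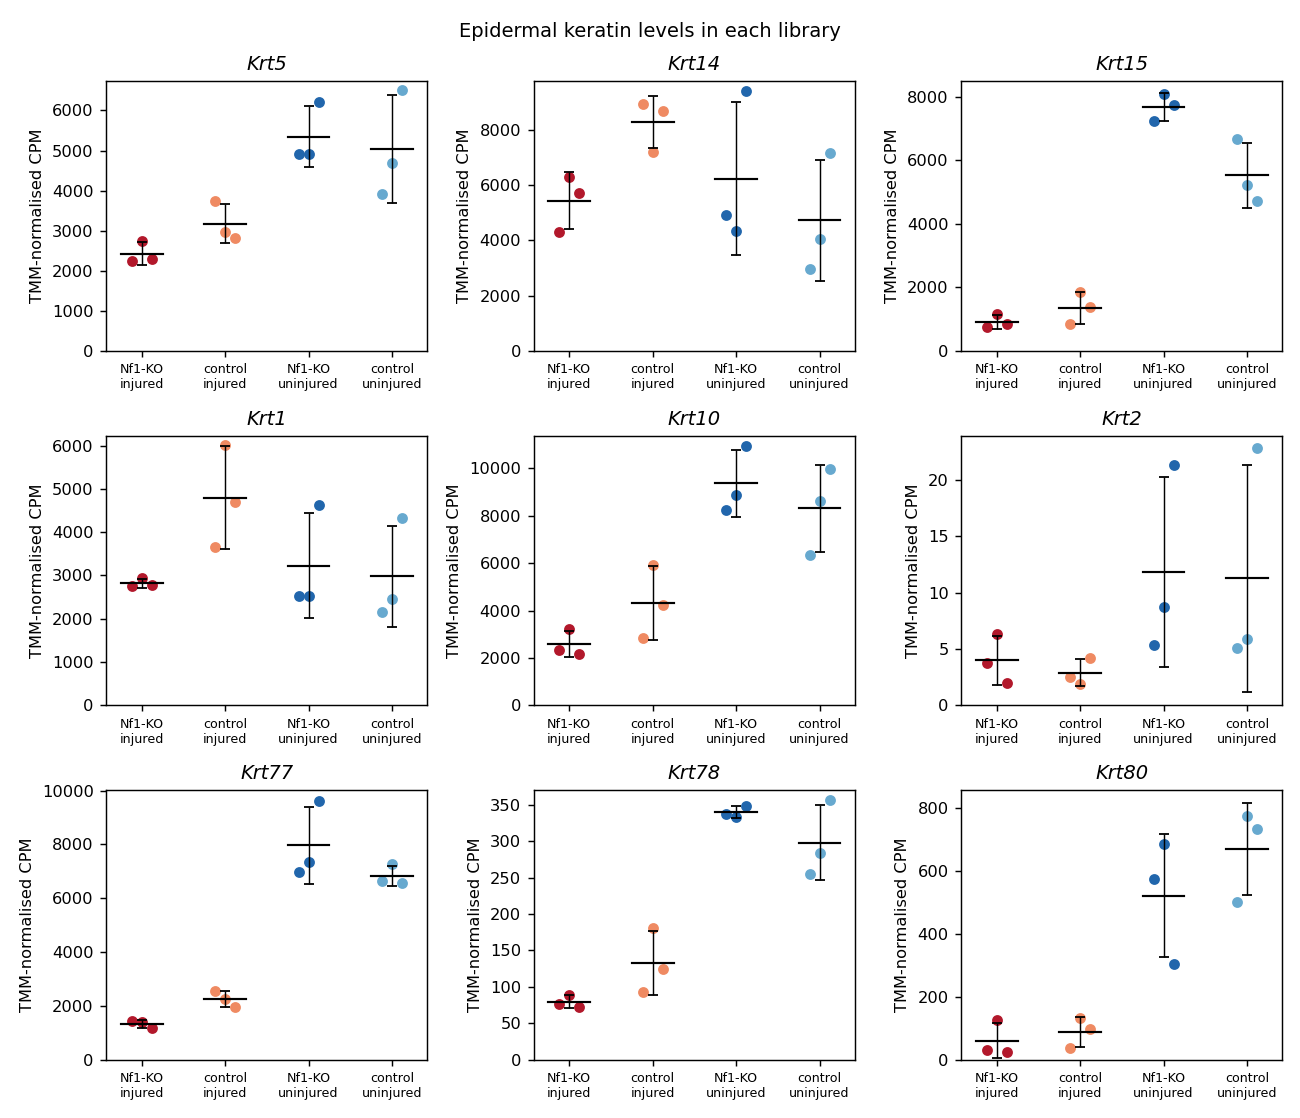
TMM-normalised CPM of each of the 9 keratins (vertical axes, linear, starting at 0) in every library of the 4 groups, with 1 point per library, bars at the group mean and whiskers of 1 SD (n = 3). Krt15, Krt10, Krt77, Krt78, Krt80 and Krt5 sit lower in both injured groups than in both uninjured groups, and Krt14 and Krt1 do not.

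The order of the keratins differed between injured and uninjured skin. Per kilobase of the principal transcript, Krt15 and Krt10 led in Nf1-KO uninjured skin with 4520 ± 257 and 4472 ± 669 CPM per kb, followed by Krt14 (3671 ± 1637), Krt77 (2717 ± 488) and Krt5 (2434 ± 344). In control uninjured skin Krt10 led with 3972 ± 878 CPM per kb, followed by Krt15 (3253 ± 602), Krt14 (2781 ± 1282), Krt77 (2327 ± 129) and Krt5 (2292 ± 609). Krt1 stood below these in both, at 1315 ± 496 CPM per kb in Nf1-KO uninjured and 1213 ± 477 in control uninjured skin (SD, n = 3 throughout). Neighbours in these orders differed by less than the sum of their SDs, except Krt5 and Krt1 in Nf1-KO skin, and Krt5 and Krt1 lay close to that limit in control skin. In injured skin Krt14 led by a wide margin, with 3202 ± 609 CPM per kb in Nf1-KO and 4875 ± 552 in control skin. Krt10, Krt1 and Krt5 followed as a group, at 1229 ± 262, 1149 ± 41.0 and 1104 ± 127 CPM per kb in Nf1-KO injured and 2065 ± 741, 1952 ± 485 and 1446 ± 223 in control injured skin, and did not differ beyond their spread. Krt15 (539 ± 127 in Nf1-KO injured and 796 ± 299 in control injured skin) and Krt77 (456 ± 49.1 and 774 ± 104) came after them. Group means of Krt80 ran from 19.7 to 218 CPM per kb, those of Krt78 from 23.2 to 98.8 and those of Krt2 from 1.10 to 4.52. All annotated exons of Krt1 span 4415 bases, against 2455 in its principal transcript, and those of Krt80 6393, against 3067. Divided by all exons, both genes would stand lower in this order and in the ratios and shares below, which were not computed that way.

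With all 12 libraries, injured skin had lower levels of 6 of the 9 keratins in both genotypes. Krt14 and Krt1 were called in neither there. In Nf1-KO skin 6 keratins fell with injury and none rose, where 37.4% of all genes were called and 18.4% were called lower. In control skin 7 fell and none rose, where 55.3% of all genes were called and 32.5% were called lower. The median log2 fold change of the 9 was -1.86 in Nf1-KO skin, beside -0.09 over all genes tested, and -1.17 in control skin, beside -0.21. The genes called lower in both were Krt5, Krt15, Krt10, Krt77, Krt78 and Krt80, and Krt2 was called in control skin. In Nf1-KO skin 6 keratins were lower in every injured library than in every uninjured one, as were 27.9% of all genes. In control skin 7 were lower without overlap, as were 36.6% of genes, and Krt14 was higher without overlap, as were 25.8%. The fit without both uninjured libraries numbered 3, chosen after seeing the data, called 6 keratins in control skin. Krt15, Krt77, Krt78 and Krt80 were lower, and Krt14 (1.27) and Krt1 (1.08) were higher. Krt5, Krt10 and Krt2 lost their control call. Of 25329 genes tested in that fit, 8418 were called lower and 5567 higher in control skin.

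**Figure D2:**
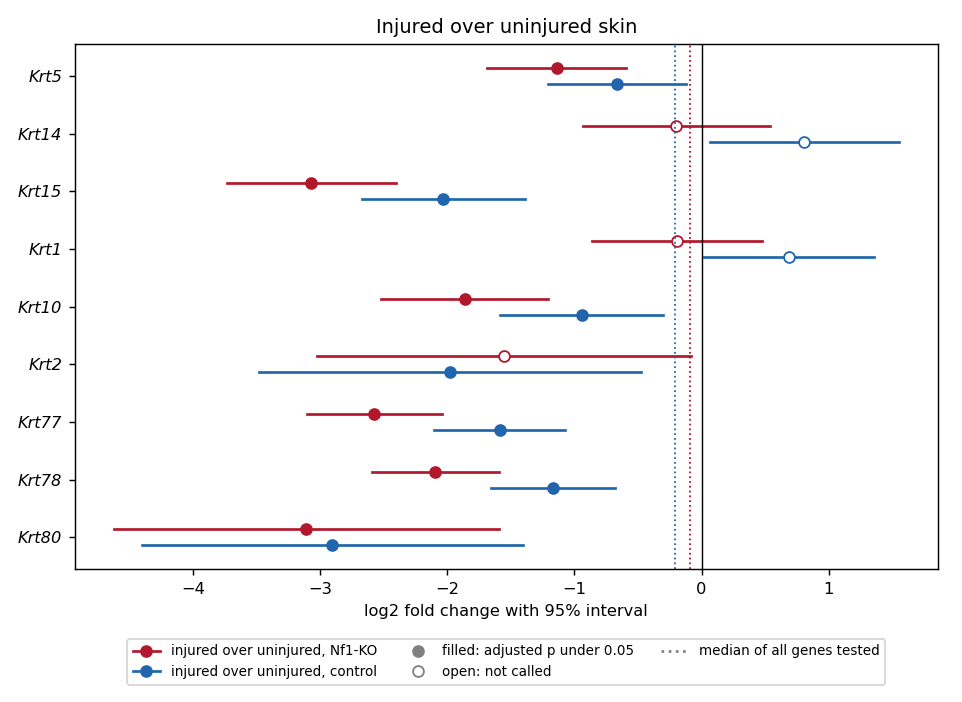
Log2 fold change of injured over uninjured skin for each keratin, with its 95% interval, in Nf1-KO skin (upper of each pair) and control skin (lower of each pair). Filled points passed an adjusted p of 0.05 and dotted lines mark the median of all genes tested. Krt15 and Krt80 lie farthest to the left and Krt14 and Krt1 lie around or above 0.

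Krt15 (chromosome 11, 100131758 to 100135928), the type I keratin of basal and bulge cells, had the largest fall of the basal keratins. It stood at 757, 1162 and 829 CPM in Nf1-KO injured libraries 1 to 3, against 7222, 8092 and 7738 in Nf1-KO uninjured ones. Control skin had 838, 1854 and 1369 CPM in injured libraries, against 6673, 5216 and 4701 in uninjured ones. Every injured library lay far below every uninjured one. The log2 fold change was -3.07 in Nf1-KO skin (SE 0.32, edgeR adjusted p = 2.84e-06) and -2.03 in control skin (SE 0.30, adjusted p = 0.000102), which is 8.39-fold and 4.08-fold lower. Krt15 kept its call and direction in both genotypes under all alternative settings run.

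Krt5 (chromosome 15, 101707070 to 101712898), the type II partner in basal cells, fell by less. It stood at 2237, 2746 and 2294 CPM in Nf1-KO injured libraries, against 4911, 4910 and 6221 in Nf1-KO uninjured ones (log2 fold change -1.14, SE 0.26, edgeR adjusted p = 0.00305). Its control values were 3736, 2966 and 2826 CPM in injured libraries, against 3912, 4680 and 6516 in uninjured ones (-0.67, SE 0.26, adjusted p = 0.0365). The control groups came close, with the highest injured library just under the lowest uninjured one. The control call was lost without both uninjured libraries numbered 3 (-0.40, adjusted p = 0.147), an alternative chosen after seeing the data, without a filter on low counts (-0.47, adjusted p = 0.074), and in 7 of the 12 fits that left out a single library. These were control uninjured library 2 (-0.71, adjusted p = 0.071) or 3 (-0.32, adjusted p = 0.33), Nf1-KO uninjured library 1 (adjusted p = 0.0575) or 2 (adjusted p = 0.0532), control injured library 2 (adjusted p = 0.128) or 3 (adjusted p = 0.169) and Nf1-KO injured library 1 (adjusted p = 0.0686). Without control uninjured libraries 1 and 2, a fit that leaves library 3 as the single control uninjured one, the value was -1.04 (adjusted p = 0.0518), and with a covariate for ribosomal RNA-like counts it was -0.73 (adjusted p = 0.116).

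Krt14 (chromosome 11, 100203162 to 100207548), the main type I keratin of basal cells, did not follow Krt5 and Krt15. It stood at 4289, 6297 and 5724 CPM in Nf1-KO injured libraries, against 4924, 4349 and 9426 in Nf1-KO uninjured ones, and these groups overlapped (log2 fold change -0.20, 95% interval -0.93 to 0.54, edgeR adjusted p = 0.674). In control skin it stood at 8941, 7205 and 8688 CPM in injured libraries, against 2973, 4032 and 7161 in uninjured ones. All 3 control injured libraries lay above all 3 uninjured ones, but only just above uninjured library 3 (0.81, SE 0.35, adjusted p = 0.0595). Without both uninjured libraries numbered 3, Krt14 was called higher in injured control skin (1.27, adjusted p = 0.00153). It was also called higher there by DESeq2 (0.76, adjusted p = 0.0397) and limma voom (0.91, adjusted p = 0.0252), and in 7 of the 12 fits without a single library, most clearly without control uninjured library 3 (1.35, adjusted p = 0.00588). Without both libraries numbered 3 its value in Nf1-KO skin was 0.18 (adjusted p = 0.574). Of the 50-base stretches of the Krt14 transcript, 14.4% also occur in Krt16 or Krt17, and of those of Krt5 8.52% also occur in Krt6a, Krt6b, Gm5414 or Gm5478, so reads could be split among these genes or lost. Krt17 rose with injury, and Krt6a and Krt16 stood higher in injured libraries without a call, and the part of shared reads in the value of Krt14 was not tested.

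Krt10 (chromosome 11, 99385254 to 99389364), the type I keratin of suprabasal cells, fell in both genotypes. It stood at 2351, 3198 and 2170 CPM in Nf1-KO injured libraries, against 8264, 8888 and 10942 in Nf1-KO uninjured ones (log2 fold change -1.86, SE 0.31, edgeR adjusted p = 0.000261). Control skin had 2829, 5927 and 4219 CPM in injured libraries, against 6350, 8605 and 9994 in uninjured ones (-0.94, SE 0.30, adjusted p = 0.0146). The groups did not overlap in either genotype, but control injured library 2 came close to control uninjured library 1. The control call was lost without control uninjured library 3 (-0.68, adjusted p = 0.101), without control injured library 1 (-0.69, adjusted p = 0.0764), without control injured library 3 (-0.87, adjusted p = 0.0638) and without both uninjured libraries numbered 3 (-0.76, adjusted p = 0.0508). With the ribosomal RNA-like share of each library as a covariate it was -0.31 (adjusted p = 0.524), and with library 3 as the single control uninjured one it was -1.20 (adjusted p = 0.0615). An antisense gene, Gm11940, shares 146 exonic bases with Krt10, and the library kit does not mark the strand.

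Krt1 (chromosome 15, 101845426 to 101850794), the type II partner of Krt10, did not fall with it. It stood at 2752, 2937 and 2774 CPM in Nf1-KO injured libraries, against 2531, 2522 and 4634 in Nf1-KO uninjured ones (log2 fold change -0.19, 95% interval -0.86 to 0.47, edgeR adjusted p = 0.645). Its control values were 3648, 6024 and 4707 CPM in injured libraries, against 2150, 2466 and 4319 in uninjured ones (0.69, 95% interval 0.02 to 1.36, adjusted p = 0.0762). In both genotypes the single uninjured library that overlapped the injured ones, or exceeded them, was library 3. Without both uninjured libraries numbered 3, Krt1 was called higher in injured control skin (1.08, adjusted p = 0.00318) and stood at 0.12 in Nf1-KO skin (adjusted p = 0.717). It was also called higher in control skin by limma voom (0.73, adjusted p = 0.0428) and in 5 of the 12 fits without a single library, among them that without control uninjured library 3 (1.16, adjusted p = 0.00875).

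Krt77 (chromosome 15, 101858731 to 101869705), a type II keratin of mouse suprabasal epidermis, fell in both genotypes. It stood at 1441, 1398 and 1173 CPM in Nf1-KO injured libraries, against 6962, 7330 and 9602 in Nf1-KO uninjured ones. In control skin it stood at 2572, 2269 and 1964 CPM in injured libraries, against 6627, 7257 and 6581 in uninjured ones. The groups were far apart in both genotypes. The fall was 5.96-fold in Nf1-KO skin (log2 fold change -2.57, SE 0.25, edgeR adjusted p = 1.85e-06) and 3.01-fold in control skin (-1.59, SE 0.24, adjusted p = 0.000124). Krt77 and Krt15 were the 2 keratins called in control skin with the ribosomal RNA-like share of each library as a covariate, an alternative chosen after seeing the data.

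Krt78 (chromosome 15, 101946001 to 101954287), a type II keratin of suprabasal cells, had a lower level and fell in both genotypes. It stood at 76.8, 89.4 and 72.5 CPM in Nf1-KO injured libraries, against 338, 333 and 349 in Nf1-KO uninjured ones (4.27-fold lower, edgeR adjusted p = 7.40e-06). Control skin had 93.6, 181 and 124 CPM in injured libraries, against 255, 284 and 356 in uninjured ones (2.24-fold lower, adjusted p = 0.000756). Neither pair of groups overlapped. With the ribosomal RNA-like covariate the control value was -0.67 (adjusted p = 0.0926).

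Krt80 (chromosome 15, 101347444 to 101370162), a type II keratin of differentiating cells, had a steep fall with wide errors, and the widest spread, relative to its mean, among injured libraries. It stood at 31.4, 125 and 25.04 CPM in Nf1-KO injured libraries, against 573, 684 and 305 in Nf1-KO uninjured ones (log2 fold change -3.11, SE 0.68, edgeR adjusted p = 0.00606). Its control values were 38.5, 132 and 97.2 CPM in injured libraries, against 501, 773 and 733 in uninjured ones (-2.91, SE 0.67, adjusted p = 0.00475). The 3 injured libraries with the lowest Krt80 were those with the highest share of ribosomal RNA-like counts, at 3.40% and 4.15% in Nf1-KO injured libraries 1 and 3 and 4.21% in control injured library 1, against 1.75% to 2.01% in the other injured libraries. With that share as a covariate the control value was -0.73 (adjusted p = 0.0572) and the Nf1-KO value -2.13 (adjusted p = 5.85e-06). Without Nf1-KO injured library 2 the Nf1-KO value was -4.21. Gm35853, an antisense gene, shares 263 exonic bases with Krt80.

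Krt2 (chromosome 15, 101810689 to 101818169), a type II keratin of upper epidermal layers that in mice is abundant in ear, sole and tail skin, was near the bottom of the scale. It stood at 3.72, 6.28 and 1.98 CPM in Nf1-KO injured libraries, against 5.38, 8.74 and 21.3 in Nf1-KO uninjured ones (log2 fold change -1.55, 95% interval -3.02 to -0.08, edgeR adjusted p = 0.0878). In control skin it stood at 2.49, 1.90 and 4.21 CPM in injured libraries, against 5.08, 5.83 and 22.8 in uninjured ones (-1.98, SE 0.69, adjusted p = 0.0284). Library 3 carried most of the uninjured level in both genotypes. Without both uninjured libraries numbered 3 the control call was lost (-0.91, adjusted p = 0.127), and the Nf1-KO value was -0.85. The control call was also lost without control uninjured library 3 (-0.83, adjusted p = 0.222), control injured library 1 (adjusted p = 0.102) or 2 (adjusted p = 0.11), or Nf1-KO injured library 1 (adjusted p = 0.0576), and with the ribosomal RNA-like covariate (-1.42, adjusted p = 0.402). In Nf1-KO skin Krt2 was called lower without a filter (-1.48, adjusted p = 0.00943), with the compared groups alone (-1.59, adjusted p = 0.0497), by DESeq2 (-1.62, adjusted p = 0.024), without control uninjured library 3 (-1.52, adjusted p = 0.0266) and without control uninjured libraries 1 and 2 (-1.51, adjusted p = 0.0457).

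Within single libraries, where scaling cancels, the partners of each filament pair changed their ratio. Krt14 over Krt5, per transcript length, was 2.48 to 3.23 in Nf1-KO injured, 3.10 to 3.98 in control injured, 1.15 to 1.96 in Nf1-KO uninjured and 0.983 to 1.42 in control uninjured skin. Krt1 over Krt10 was 0.783 to 1.09 in Nf1-KO injured and 0.867 to 1.10 in control injured skin, against 0.242 to 0.361 in Nf1-KO uninjured and 0.244 to 0.369 in control uninjured skin. No injured library overlapped an uninjured one in either ratio, uninjured library 3 included. Krt15 over Krt14 was 0.145 to 0.184 in Nf1-KO injured and 0.0936 to 0.257 in control injured skin, against 0.820 to 1.86 in Nf1-KO uninjured and 0.656 to 2.24 in control uninjured skin. So Krt15 was the more abundant of the 2 type I basal keratins in 4 of the 6 uninjured libraries and in none of the injured ones. These ratios are given as a description, and no test was run on them.

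**Figure D3:**
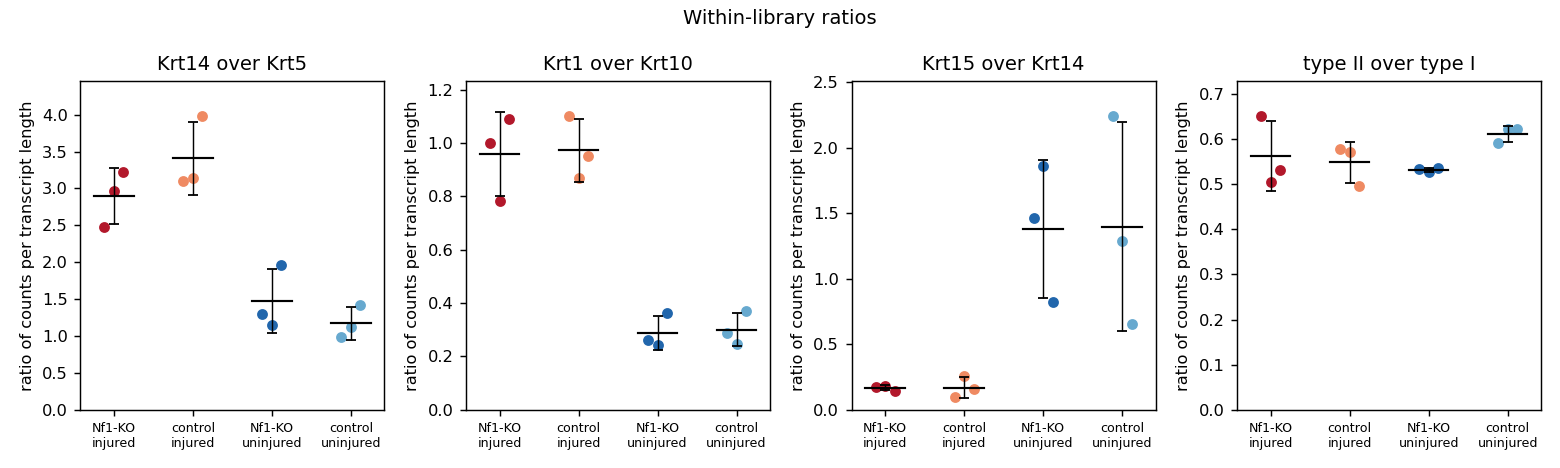
Ratios of 2 keratins, or of summed type II over summed type I keratins, within each library (vertical axes, counts per transcript length over counts per transcript length, starting at 0), with 1 point per library, bars at the group mean and whiskers of 1 SD (n = 3). The first 3 ratios separate all injured from all uninjured libraries, and type II over type I stays between 0.497 and 0.651.

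Further ratios describe the balance of types and layers. The sum of the type II over the sum of the type I keratins was 0.505 to 0.651 in Nf1-KO injured, 0.497 to 0.577 in control injured, 0.526 to 0.535 in Nf1-KO uninjured and 0.592 to 0.623 in control uninjured skin, so Nf1-KO uninjured libraries lay below control uninjured ones. Krt1 over Krt14 ran from 0.282 to 0.578 in control injured skin, and every library of the other groups lay within that range. Krt78 over Krt10 was 0.0170 to 0.0203 in Nf1-KO injured, 0.0179 to 0.0202 in control injured, 0.0194 to 0.0249 in Nf1-KO uninjured and 0.0201 to 0.0245 in control uninjured skin. Krt77 over Krt5 was 0.382 to 0.483 in Nf1-KO injured and 0.516 to 0.573 in control injured skin, against 1.06 to 1.16 in Nf1-KO uninjured and 0.757 to 1.27 in control uninjured skin, and no injured library overlapped an uninjured one. Krt10 over Krt14 and Krt1 over Krt5 did not overlap either. Krt10 over Krt5 overlapped in control skin (0.795 to 2.10 in injured and 1.61 to 1.93 in uninjured libraries). So did Krt77 over Krt10 (0.273 to 0.649 and 0.470 to 0.746). In Nf1-KO skin these ratios were without overlap.

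The mix of the 9 keratins shifted accordingly. As a share of their summed level per transcript length, Krt14 made up 41.3% ± 3.80 in Nf1-KO injured, 41.0% ± 7.17 in control injured, 18.4% ± 4.69 in Nf1-KO uninjured and 16.7% ± 4.88 in control uninjured skin (SD, n = 3). Krt15 made up 6.92% ± 0.65 in Nf1-KO injured, 6.56% ± 2.06 in control injured, 23.8% ± 3.95 in Nf1-KO uninjured and 20.9% ± 6.97 in control uninjured skin. The 3 basal keratins together made up 62.6% ± 3.24 in Nf1-KO injured, 59.8% ± 7.27 in control injured, 54.7% ± 0.53 in Nf1-KO uninjured and 51.6% ± 2.51 in control uninjured skin. Control injured library 2, with 52.1%, overlapped the uninjured libraries in this basal share, whereas the shares of Krt14 and Krt15 did not overlap between injured and uninjured libraries.

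**Figure D4:**
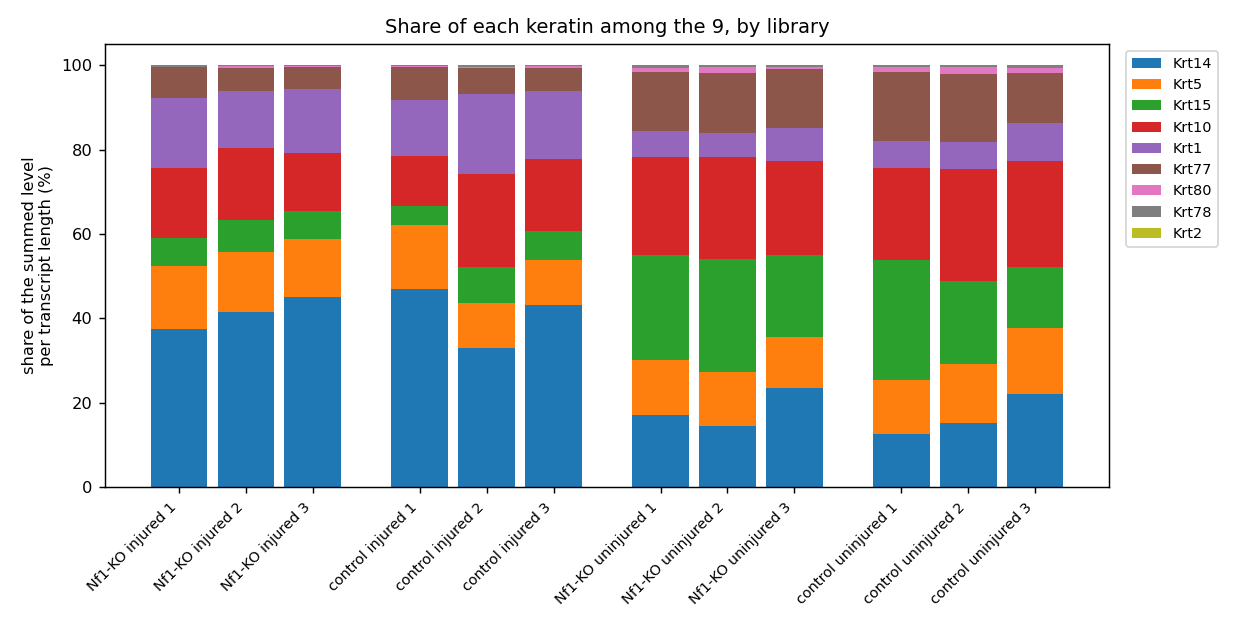
Share of each keratin in the summed level of the 9 per transcript length (vertical axis, percent), 1 bar per library, for Nf1-KO injured, control injured, Nf1-KO uninjured and control uninjured skin. Krt14 fills 33.1% to 47.0% of each injured bar and 12.6% to 23.6% of each uninjured bar, and Krt15 the reverse, with 4.40% to 8.50% and 14.5% to 28.3%.

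Between genotypes no keratin was called, in injured or in uninjured skin. In injured skin 8 of the 9 had a log2 fold change of Nf1-KO over control below 0, with a median of -0.61 for the 9 and 0.12 for all genes tested, of which 34.3% were below 0. The values are not independent of each other, since the keratins share the same 6 libraries. No gene at all was called in this comparison (0% of 23635 genes), while 10.7% of genes had an unadjusted p under 0.05, among them Krt1, Krt10, Krt77 and Krt78. DESeq2, run as an alternative, called 124 of 21722 genes tested and 1 of the keratins, Krt77 (log2 fold change -0.86, adjusted p = 0.00737). Without a filter on low counts, which moved the median of all genes to 0, edgeR called 410 of 49676 genes tested. Krt1, Krt10, Krt77 and Krt78 were among them.

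**Figure D5:**
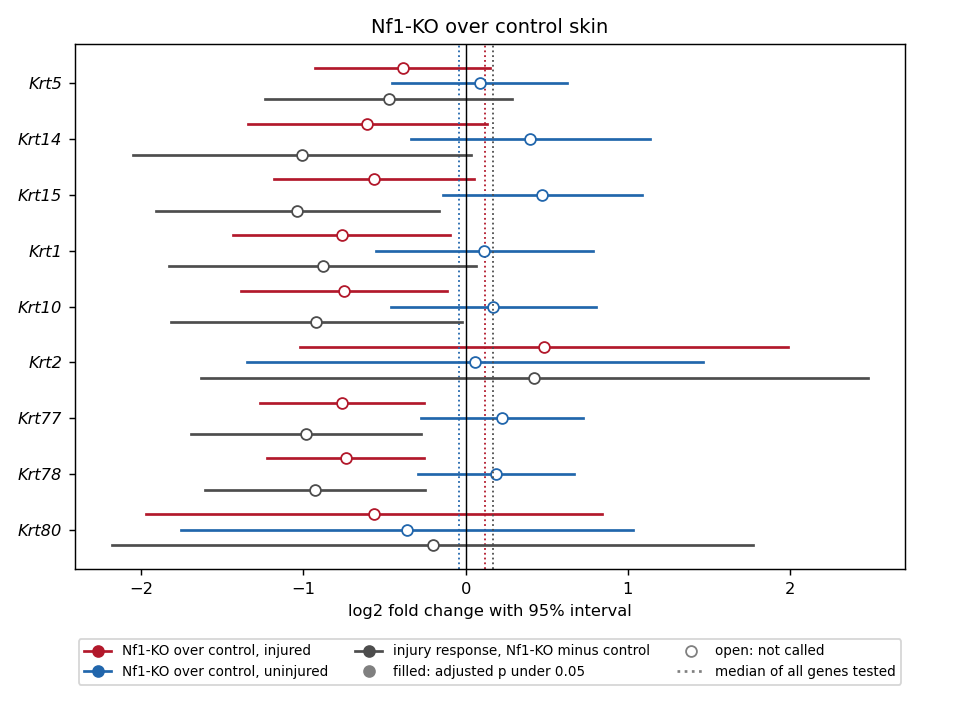
Log2 fold change of Nf1-KO over control in injured skin (upper of each triple) and uninjured skin (middle), and the injury response of Nf1-KO minus that of control skin (lower), with 95% intervals. All points are open because none passed an adjusted p of 0.05. In injured skin 8 of 9 points lie left of 0, at -0.39 to -0.76, and Krt2 lies at 0.48.

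Among single keratins, Krt77 stood at 1441, 1398 and 1173 CPM in Nf1-KO injured libraries, against 2572, 2269 and 1964 in control injured ones (log2 fold change -0.76, 95% interval -1.27 to -0.26, unadjusted p = 0.00541 and adjusted p = 0.355 in edgeR). Krt78 stood at 76.8, 89.4 and 72.5 CPM in Nf1-KO injured libraries, against 93.6, 181 and 124 in control injured libraries (-0.74, interval -1.22 to -0.26, adjusted p = 0.355). Krt1 stood at 2752, 2937 and 2774 CPM in Nf1-KO injured libraries, against 3648, 6024 and 4707 in control injured libraries (-0.76, interval -1.44 to -0.09, adjusted p = 0.409). In Krt77, Krt78, Krt1, Krt14 and Krt5 all 3 Nf1-KO injured libraries lay below all 3 control injured ones, 5 of 9 keratins where 2.67% of all genes showed this. The intervals of Krt5 (-0.93 to 0.15) and Krt14 (-1.34 to 0.13) included 0. Krt10 (-0.75, interval -1.39 to -0.11) and Krt15 (-0.56, interval -1.18 to 0.05) overlapped between genotypes, as did Krt80 (-0.56, interval -1.97 to 0.84) and Krt2. Krt77 over Krt5 was lower in every Nf1-KO injured library than in every control injured one (0.382 to 0.483 against 0.516 to 0.573). Krt14 over Krt5, Krt1 over Krt10, Krt15 over Krt14, every other ratio computed and the basal share all overlapped between Nf1-KO and control injured libraries. The 8 keratinocyte markers other than keratins (Trp63, Col17a1, Dsp, Perp, Sfn, Lor, Sbsn and Krtdap) summed to 9621 to 11820 CPM in Nf1-KO injured and 15061 to 16543 in control injured skin, and these did not overlap. Schwann cell markers (4 genes) summed to 101 to 183 CPM in Nf1-KO injured and 61.0 to 69.9 in control injured skin, without overlap. Sums of the sebaceous, hair follicle, fibroblast, adipocyte, muscle, macrophage, melanocyte and endothelial markers overlapped between these groups, and no marker was at 0 throughout either group. The part of cell composition in these differences was not tested.

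In uninjured skin no keratin was called between genotypes. Log2 fold changes of Nf1-KO over control were between 0.06 and 0.47 for 8 of the 9 keratins and -0.36 for Krt80 (54% of all genes were below 0). Of all genes, 0.0296% were called. Krt15 was the 1 keratin whose groups did not overlap, with 7222, 8092 and 7738 CPM in Nf1-KO uninjured libraries, against 6673, 5216 and 4701 in control uninjured ones (0.47, 95% interval -0.14 to 1.09, edgeR adjusted p = 0.740). Of all genes, 8.79% were higher without overlap in this comparison. The intervals of Krt77 (-0.28 to 0.72) and Krt78 (-0.29 to 0.67) were the narrowest. Those of Krt10 (-0.46 to 0.80), Krt5 (-0.45 to 0.63), Krt1 (-0.55 to 0.78) and Krt14 (-0.34 to 1.14) were wider, and those of Krt2 (-1.35 to 1.47) and Krt80 (-1.76 to 1.03) the widest. Without both uninjured libraries numbered 3, Krt80 stood at -0.03 and Krt2 at 0.36.

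The test of the difference between the injury responses addressed whether the falls were larger in Nf1-KO skin. The response of Nf1-KO minus that of control skin was below 0 for 8 of the 9 keratins (39.6% of all genes), with a median of -0.92 beside 0.17 over all genes, and none was called (0% of genes called). Krt15 (-1.04, 95% interval -1.91 to -0.17), Krt77 (-0.99, -1.70 to -0.28), Krt78 (-0.93, -1.61 to -0.25) and Krt10 (-0.92, -1.82 to -0.02) had an unadjusted p under 0.05, as 10.8% of genes did, and edgeR adjusted p from 0.441 to 0.461. The intervals of Krt14 (-2.05 to 0.04), Krt1 (-1.83 to 0.06) and Krt5 (-1.24 to 0.29) included 0. A larger fall in Nf1-KO skin was therefore not detected at this number of samples, which does not show that the responses were alike.

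Other genes of the same cells were counted from lists of textbook genes. In Nf1-KO skin 18.4% of all genes were called lower and 19.1% higher with injury, and in control skin 32.5% lower and 22.8% higher, and the medians over all genes were -0.09 and -0.21. Of 12 genes that attach or mark basal cells, 7 fell and 1 rose with injury in Nf1-KO skin, and 7 fell and 1 rose in control skin (median log2 fold change -1.20 in Nf1-KO and -1.10 in control skin). Col17a1, a collagen of the hemidesmosomes that anchor basal keratins to the basement membrane, stood at 174 ± 59.1 CPM in Nf1-KO injured, 240.0 ± 55.9 in control injured, 1136 ± 26.7 in Nf1-KO uninjured and 1343 ± 387 in control uninjured skin (SD, n = 3; 6.53-fold lower with injury in Nf1-KO skin, edgeR adjusted p = 4.05e-06, and 5.60-fold lower in control skin, adjusted p = 1.10e-05). Lamb3 and Lama3, chains of the laminin beneath these hemidesmosomes, fell in both genotypes. Cdh3, P-cadherin of basal and hair follicle cells, was the 1 that rose. Among 7 genes listed as cytolinkers, several of which tie keratin filaments to junctions, 5 fell in Nf1-KO skin. In control skin 4 fell and 1, Macf1, rose (medians -1.10 in Nf1-KO and -0.79 in control skin). Dst and Plec were counted in the basal list as well, and Dsp in the suprabasal list below. Dst, which links keratins to hemidesmosomes, was 4.19-fold lower with injury in Nf1-KO and 2.46-fold lower in control skin, and Ppl, periplakin, 3.18-fold and 2.86-fold lower.

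Suprabasal genes and regulators moved both ways. Of 19 genes of suprabasal junctions and the cornified envelope, 10 fell and 1 rose with injury in Nf1-KO skin, and 8 fell and 4 rose in control skin (medians -1.10 and -0.46). Flg2, a filaggrin family protein, stood at 292 ± 105 CPM in Nf1-KO injured, 410.3 ± 107 in control injured, 1570 ± 142 in Nf1-KO uninjured and 1795 ± 321 in control uninjured skin. Dsg1a, a desmosomal cadherin, was 4.13-fold lower with injury in Nf1-KO and 4.33-fold lower in control skin. Tgm3, a transglutaminase of the envelope and of the hair, rose in both (log2 fold change 2.12 in Nf1-KO and 1.65 in control skin). Flg, the filaggrin gene itself, Sfn and Calml3 were called higher in control skin (2.25, 1.33 and 1.92). These were not called in Nf1-KO skin (0.71, 0.65 and 0.84). Of 18 regulators of epidermal differentiation, 8 fell and 2 rose in Nf1-KO skin, and 7 fell and 5 rose in control skin (medians -0.37 and -0.11). Trp63, the p63 factor of basal cells and counted in the basal list as well, fell (-1.65 in Nf1-KO and -1.55 in control skin). Of the Notch ligand genes listed, Jag2 fell (-1.05 and -1.32) and Jag1 rose (0.84 and 0.58). The AP-2 gene Tfap2a rose (1.03 and 2.03). No gene of these 4 lists was called between genotypes.

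The other 44 keratin genes summed to 20538 to 44349 CPM in injured and 1952 to 5156 in uninjured libraries, and most are keratins of the hair follicle, whose markers were high in injured skin as well. Of the 44, 40 were tested, and no count of calls is given over them because a gene high in injured skin could pass the filter on low counts through those libraries. Krt23 was called lower in both genotypes, Krt24 in Nf1-KO skin and Krt12 in control skin, all named after their values were seen. Krt17, of wounded epidermis and the follicle, stood at 3615 ± 1202 CPM in Nf1-KO injured, 4544 ± 1168 in control injured, 1434 ± 571 in Nf1-KO uninjured and 1074 ± 251 in control uninjured skin (edgeR adjusted p = 0.00519 in Nf1-KO and 0.000179 in control skin). Krt6a stood at 1420, 1259 and 2375 CPM in Nf1-KO injured, 4396, 1343 and 2380 in control injured, 47.8, 13.9 and 501 in Nf1-KO uninjured and 14.2, 14.9 and 367 in control uninjured libraries, without a call (adjusted p = 0.157 in Nf1-KO and 0.0599 in control skin). Krt6b and Krt16 had no call either. The simple epithelial keratins Krt8, Krt18 and Krt19 had group means of 4.50 to 10.95 CPM in injured skin, against 0.372 to 0.953 CPM in uninjured skin. Their spread was wide, with Krt19 at 8.12 ± 8.55 CPM in control injured skin. Krt7 and Krt20, also listed as simple epithelial keratins, had no call with injury in either genotype.

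The genes whose level followed each keratin most closely over the 12 libraries are given as a description, since the libraries share the difference between skin states and include the uninjured libraries numbered 3. Among 13752 genes averaging at least 2 CPM, Krt10 was closest to Sdcbp2 (Pearson r = 0.992 of log2 CPM, and 0.942 after removal of the group means), followed by Alox12b, a lipoxygenase of the skin barrier, and Elovl1, an elongase of very long fatty acids. Krt1 was closest to Hrnr, hornerin of the cornified envelope (0.920, and 0.959 after removal of group means), followed by Ces2g and Ggct. Krt14 was closest to Lypd3, Mfsd5 and Lgals7 (0.946, 0.941 and 0.940), and Lgals7 encodes galectin-7 of stratified epithelia. Krt5 was closest to Slco3a1, Ets2 and Kcnj15 (0.976, 0.974 and 0.973), and Krt15 to Dkkl1, Ahnak2 and Sh3d21 (0.991, 0.990 and 0.989). Krt80 was closest to Scel, sciellin of the envelope (0.995, and 0.996 after removal of group means), then to Rab18 and Siah1a. Krt77 was closest to Clip4, Klf5 and Foxn3 (0.989, 0.987 and 0.984), but after removal of group means these fell to 0.447, 0.485 and 0.635. Krt78 was closest to Elovl1, Dhcr7 and Dkkl1 (0.986, 0.985 and 0.983), and Krt2 to Zfp740, Sytl1 and Oas1e (0.924, 0.915 and 0.900).

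Some keratins deviated together from their group means, and part of this rested on the uninjured libraries numbered 3. Krt78 and Krt10 had r = 0.934 over the 12 libraries and 0.953 over the 10 without those 2, and Krt1 and Krt10 had r = 0.778 and 0.930. Krt14 and Krt5 had r = 0.870 over 12 and 0.663 over 10 libraries. Krt1 and Krt14 had r = 0.769 over 12 libraries and -0.15 over 10. Krt15 stood at r = -0.39 with Krt5 and -0.24 with Krt14 over 12 libraries, and at -0.37 and -0.19 over 10. With Krt78 it had r = 0.637 and 0.853, and with Krt10 0.606 and 0.803. Within a library all keratins share the same depth and the same RNA, and these values carry no test.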

How the data were processed

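RNA from whole skin was amplified with Smart-Seq v4 and made into libraries with Nextera XT, per the labels' protocols, which does not mark the strand. The authors deposited raw read counts per Ensembl gene, 1 column per library per the file headers. The submitters' processing notes name HTSeq 0.5.3, STAR 2.5.2b, HOMER, SAMtools and DESeq2, with build mm10 and no roles. How strand was set, and which annotation was counted, is not given in the sources used here. Repeated columns were equal and read once, and 1 column of no listed sample was not used. GENCODE M21 matched 53274 of 53379 IDs, and unmatched IDs held at most 0.04545% of a library.

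All 12 libraries were fitted in edgeR 4.0.16 (4 group means, TMM, default filter with a count minimum of 10, robust quasi-likelihood F test, 2-sided), tested on simulated data. Alternatives were DESeq2 1.42.0, limma 3.58.1 voom, a replicate block, scaling by median of ratios, a minimum of 2 CPM in 3 samples or no minimum, the compared groups alone, and each library left out. After seeing the data, fits without control uninjured libraries 1 and 2, without both uninjured libraries numbered 3 and with the log2 ribosomal RNA-like share were added. Likeness used log2(CPM + 0.5). Each keratin was named with its 3 closest genes, and each list with up to 3 called genes of smallest p, of which the text gives a selection with a few others chosen after their values were seen. Members and lists were chosen with earlier results of these data known. Library pairs of a group differed beyond counting noise (chi-square per degree of freedom 11.4 to 102).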

Additional observations from a re-analysis of the deposited data

How the results depend on the processing

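With injury, Krt15 and Krt77 kept their direction and call in both genotypes under all alternatives run, and Krt5, Krt10, Krt78 and Krt80 did so in Nf1-KO skin. Over the single keratins and all alternatives, 895 values kept their direction and side of the threshold, 33 passed it newly, 25 no longer passed it and 28 turned their direction. With a covariate for ribosomal RNA-like counts, 2 keratins and 6647 of 23635 genes tested were called with injury in control skin, and 5460 genes in Nf1-KO skin. It gave 0 called genes between genotypes in uninjured skin, 3 in injured skin and 2 for the difference between the injury responses. In that fit Krt80 stood at 0.92 between genotypes in uninjured skin. Without control uninjured libraries 1 and 2 the control uninjured group is 1 library, number 3, which stands apart and is assumed to vary like the other groups, so the values describe that library. There, 5 keratins and 6164 genes were called with injury in control skin and 2 for the difference between responses, and the values between genotypes in uninjured skin were -0.32 for Krt5, -0.24 for Krt14, -0.46 for Krt1, -0.13 for Krt10, -0.99 for Krt2 and -0.10 for Krt78. Without both uninjured libraries numbered 3, Krt14 stood at 0.18 and Krt1 at 0.12 with injury in Nf1-KO skin, and 1 gene was called between genotypes in uninjured skin, 7 in injured skin and 2 for the difference.

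Between genotypes in uninjured skin, 7 genes were called, against 4 with median-of-ratios scaling, 219 without a filter, 2 with the filter of 2 CPM, 27 with the compared groups alone, 1 with limma voom and 60 with DESeq2. Krt2 stood there at -0.0138 with median-of-ratios scaling and -0.0106 with DESeq2. In injured skin, 410 of 49676 genes tested and 4 keratins were called without a filter. There, limma voom called 1 gene, and DESeq2 called 124 of 21722 genes tested and 1 keratin. For the difference between the responses, 236 of 49676 genes tested and 1 keratin (Krt15) were called without a filter, and 37 of 22685 genes with DESeq2. The cause was not tested. With injury, fits that also changed the genes tested moved the median of all genes. In control skin it moved by -1.20 without a filter and by -0.90 with DESeq2, with 33.4% and 29.8% of called genes higher, against 41.3% in the edgeR fit with its filter. In Nf1-KO skin it moved by -0.51 and -0.68, with 45.4% and 39.7% higher, against 50.9%, and by -0.11 with median-of-ratios scaling on the same genes.

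It was not settled whether the replicate numbers pair the libraries. Correlations of deviations from the group means cannot exclude a pairing or a shared batch. Same-numbered libraries of different groups had correlations of deviations from -0.37 to 0.41, with 4 of 18 over 0.1, and 6 of 12 libraries correlated best with their own number. Differently numbered libraries of different groups had a similar range, from -0.38 to 0.32. With a replicate block, 9 keratins were called with injury in control skin, Krt14 (0.91, adjusted p = 0.0168) and Krt1 (0.74, adjusted p = 0.0333) included. Of 23635 genes tested in that fit, 12740 were called with injury in control skin and 1 between genotypes in uninjured skin.

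Leaving out each library in turn, with 24126 to 25449 genes tested, gave 5 to 9 keratins and 10915 to 14882 genes called with injury in control skin. In Nf1-KO skin it gave 6 to 7 keratins and 5647 to 10020 genes. Between genotypes it gave 0 to 12 genes in uninjured skin, 0 to 89 in injured skin and 0 to 3 for the difference between responses, with 0 keratins in each. Ranges that crossed 0 were -0.42 to 0.26 for Krt14 and -0.36 to 0.18 for Krt1 with injury in Nf1-KO skin. Between genotypes in uninjured skin they were -0.054 to 0.32 for Krt5, -0.025 to 0.83 for Krt14, -0.23 to 0.48 for Krt1 and -0.68 to 1.10 for Krt2. In injured skin Krt2 ranged from -0.022 to 0.88, and for the difference between responses Krt2 ranged from -0.69 to 1.17 and Krt80 from -1.34 to 0.19. With 3 libraries a group, small differences between genotypes could not be resolved. Krt2 had 23 counts in its lowest library, and the part of depth in its spread was not tested.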
